A study of Mus musculus with 13 samples.

Results

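Mouse embryonic stem (ES) cells in which an O-GlcNAc hydrolase had been directed to IAP retrotransposons were compared with ES cells that lack the maintenance DNA methyltransferase Dnmt1. The question was which repeats and genes set targeted deGlcNAcylation apart from loss of Dnmt1. Genes and repeats were taken from the deposited count tables when the dCas9-OGA and Dnmt1-null columns together held at least 100 counts, with the rRNA row left out. They came to 12402 of 49671 genes and 613 of 1553 repeat rows, of which 516 were transposon subfamilies (1102 are listed) and 97 were other rows such as satellites and simple repeats. With 1 RNA-seq library on each side there was nothing to test against, and differences between them come without a replicate check or a p-value.

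The study asked how promoters with methylated DNA are kept silent and whether protein O-GlcNAcylation takes part. The dCas9-OGA cells were AinV15 cells, an ES line with wild-type Dnmt1 into which a cassette under doxycycline control can be exchanged. Their cassette encoded a nuclease-dead Cas9 fused to a bacterial O-GlcNAc hydrolase (OGA) together with 4 sgRNAs against the U3 promoter region of IAP LTRs, and it was induced with 1 µg/mL doxycycline for 48 h. The Dnmt1-null cells were a separate ES line with the C allele of Dnmt1, with no cassette and no doxycycline. The same tables hold 1 library of AinV15 cells with the cassette carrying OGA-D242A, a substitution that removes the enzyme's activity, also induced for 48 h, and 1 library of untreated WT ES cells. A further 3 replicate libraries of Dnmt1-null cells and 3 of WT cells hold genes only and were processed separately. All cells were grown on gelatin in serum with leukemia inhibitory factor. The cell line, the cassette, doxycycline and the state of Dnmt1 all differ between the dCas9-OGA and Dnmt1-null libraries and cannot be told apart. No label links the single Dnmt1-null and WT libraries to a replicate.

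DNA methylation is copied after replication by Dnmt1, and it takes part in silencing endogenous retroviruses, imprinted genes and a group of germline genes. The study also names methylation-independent repression of IAP elements. TRIM28, brought to such sequences by KRAB zinc finger proteins, recruits histone H3K9 methylation and other repressors. O-GlcNAc is a single sugar that OGT adds to serine and threonine of nuclear and cytoplasmic proteins and that OGA removes.

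Counts on genes came to 24955180 in dCas9-OGA, 18693531 in Dnmt1-null, 24828078 in dCas9-OGA-D242A and 25097983 in WT. Levels are given as cpm, scaled on the gene counts of the same library (on the recovered gene reads for replicates), and log2 ratios are dCas9-OGA to Dnmt1-null on log2(cpm + 0.5), a scale that understates differences of scarce transcripts. Features at least 2-fold apart on that scale are called higher or lower.

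Dnmt1 (ENSMUSG00000004099, chromosome 9 of GRCm38 from 20907209 to 20959888, minus strand) was examined first as a check of the labels. It had 1176 counts in Dnmt1-null (62.9 cpm), 13614 in dCas9-OGA (546 cpm), 9339 in dCas9-OGA-D242A (376 cpm) and 11408 in WT (455 cpm). The Dnmt1-null library was the lowest of the 4, with a log2 ratio of 3.11, so Dnmt1 transcripts were reduced but present there. In the replicate libraries Dnmt1 was at 71.0, 74.1 and 75.4 cpm in Dnmt1-null and at 321, 365 and 360 in WT, so it fell by 2.14 on the log2 scale (adjusted p = 1.1e-20 by limma, standard error 0.05).

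The ES markers were abundant in both libraries. Pou5f1 was at 1338 cpm in dCas9-OGA and 906 cpm in Dnmt1-null, Sox2 at 748 and 549 cpm, and Nanog at 386 and 316 cpm. Esrrb (1079 and 586 cpm) and Tdgf1 (267 and 220 cpm) were also higher in dCas9-OGA. The other ES markers were higher in Dnmt1-null: Sall4 at 269 and 389 cpm, Lin28a at 237 and 366, Utf1 at 473 and 586, and Zfp42 at 418 and 490. Markers of other cell types varied, and some were scarce in both: the trophoblast factor Cdx2 had 7 and 4 counts, the fibroblast gene Dcn 8 and 11, and the neural factor Neurog2 1 and 0. The neuronal tubulin Tubb3 was not scarce in Dnmt1-null, at 212 cpm against 23.0 cpm in dCas9-OGA. Pax6, of neural progenitors, was at 12.5 cpm in Dnmt1-null and 0.36 in dCas9-OGA, while Sox1 was at 1.66 and 13.3 cpm. Of the 6 fibroblast markers Thy1 was the most abundant, at 22.7 cpm in dCas9-OGA and 18.8 cpm in Dnmt1-null. In the replicate WT libraries Col1a1, another of these markers, stood at 546, 678 and 456 cpm against 117, 131 and 116 in the replicate Dnmt1-null libraries, a level neither single library shared. Single and replicate libraries differed as sets. Gene levels of the single Dnmt1-null library had correlations of 0.81, 0.81 and 0.81 with the replicate Dnmt1-null libraries. They were 0.95 with dCas9-OGA-D242A and 0.92 with the single WT library. Pou5f1 was at 273, 266 and 255 cpm in the replicate Dnmt1-null libraries, and Tdgf1 at 980, 938 and 891. The cause of this difference was not tested.

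Reads on transposons made up a larger part of the dCas9-OGA library. They came to 41935 cpm in dCas9-OGA, 28205 in Dnmt1-null, 27840 in dCas9-OGA-D242A and 24713 in WT. LTR elements stood at 21960 cpm in dCas9-OGA and 10332 cpm in Dnmt1-null, which was 52.4% and 36.6% of all transposon counts. The 3 libraries other than dCas9-OGA lay close together in LTR reads, at 10332, 10166 and 10719 cpm. Summed SINE counts hardly differed, at 11710 cpm in dCas9-OGA and 11671 cpm in Dnmt1-null. LINE elements stood at 7403 and 5489 cpm. The row for rRNA held 32.2% of the repeat counts in dCas9-OGA, 48.1% in Dnmt1-null, 48.2% in dCas9-OGA-D242A and 40.6% in WT. As a share the row was lowest in dCas9-OGA, where transposon reads were highest, but those reads are part of the same total. In counts it held 552164 in dCas9-OGA, 574465 in Dnmt1-null, 740992 in dCas9-OGA-D242A and 478521 in WT, so WT was the lowest. The part of the rRNA row in the difference was not tested.

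Of the 516 transposon subfamilies, 23 (4.46%) were higher in dCas9-OGA and 6 (1.16%) were lower. Among the higher ones 20 were LTR subfamilies (of 330 measured) and 3 were LINE subfamilies (of 105). Of the 20, 4 were IAP (of 16) and 16 were not (of 314). The lower ones were 4 LTR and 2 SINE subfamilies (of 34 SINE measured), and none of the 47 DNA transposon subfamilies was called either way. The split depended on the scaling. The median subfamily was at a log2 ratio of 0.30, and relative to it 11 subfamilies were higher and 16 lower. Scaled on total transposon counts, which places the median subfamily at −0.24, 7 were higher and 23 lower. Subfamilies close to the 2-fold limit included RLTR4_Mm at 1.01, Lx6 at 1.01 and ORR1A0 at −1.001 just inside, and MamTip2 at 0.97, RLTR20A2 at 0.96 and RLTR9E at −0.95 just outside.

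**Figure D1:**
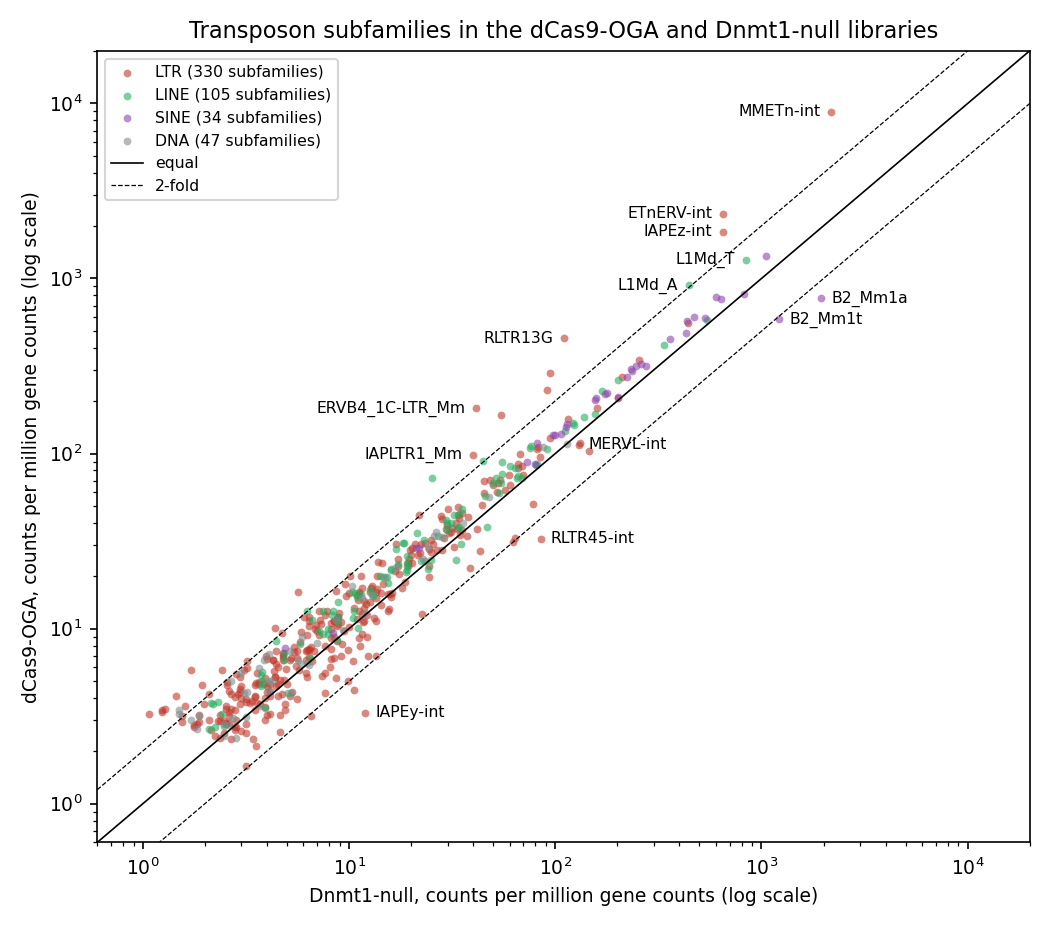
Level in cpm of the 516 transposon subfamilies in the Dnmt1-null library (x axis) and the dCas9-OGA library (y axis), both on log scales, 1 point a subfamily colored by class. The solid line marks equal levels and the dashed lines 2-fold. MMETn-int lies above the solid line, at 8938 against 2175 cpm, and B2_Mm1a below it, at 769 against 1948 cpm.

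The bulk of the difference lay in the ETn and MusD group, nonautonomous retrotransposons and their coding relatives outside the IAP group. MMETn-int, the internal part of ETn elements, was at 8938 cpm in dCas9-OGA, 2175 in Dnmt1-null, 2906 in dCas9-OGA-D242A and 2652 in WT. Only the dCas9-OGA library stood high, with a log2 ratio to Dnmt1-null of 2.04 (95% interval from 2.02 to 2.05, exact Clopper-Pearson conditional on the sum, counting error only). Its share of transposon counts was 21.3% in dCas9-OGA and 7.71% in Dnmt1-null. It held 60.1% of the summed 11257 cpm by which the 23 higher subfamilies exceeded Dnmt1-null. ETnERV-int was at 2336 cpm in dCas9-OGA, 650.1 in Dnmt1-null, 799 in dCas9-OGA-D242A and 751 in WT. RLTRETN_Mm, an LTR of these elements, was at 165, 54.7, 58.1 and 83.0 cpm in the same order. Relative to the median subfamily MMETn-int stood at a log2 ratio of 1.74, ETnERV-int at 1.54 and RLTRETN_Mm at 1.28. Over the 5 subfamilies of the group 3 were higher (4.46% of all subfamilies), with a median of 1.59. The other 2 were scarce: ETnERV3-int was at 9.70 cpm in dCas9-OGA, 6.95 in Dnmt1-null and 17.9 in dCas9-OGA-D242A, and ETnERV2-int at 6.93 cpm in dCas9-OGA and 12.4 in Dnmt1-null, a log2 ratio of −0.80.

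Other LTR subfamilies had the same pattern at lower levels. RLTR13G was at 455 cpm in dCas9-OGA, 110.0 in Dnmt1-null, 146 in dCas9-OGA-D242A and 144 in WT. ERVB4_1C-LTR_Mm, with the highest log2 ratio of all subfamilies (2.12), was at 181, 41.3, 59.1 and 57.3 cpm in the same order. ERVB7_1-LTR_MM was at 288, 93.8, 101 and 125 cpm, and its log2 ratio was 1.61. In each of these the 3 other libraries lay close together and Dnmt1-null was the lowest of the 4. RLTR4_MM-int, the internal part of an element related to murine leukemia virus, was at 231 cpm in dCas9-OGA, 91.4 in Dnmt1-null, 72.2 in dCas9-OGA-D242A and 109.8 in WT. RepeatMasker subfamilies share sequence, so reads of one can be counted on another, and how many were was not tested.

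IAPEz-int, the internal part of the elements whose LTRs the sgRNAs address, was at 1848 cpm in dCas9-OGA, 650.1 in Dnmt1-null, 474 in dCas9-OGA-D242A and 419.7 in WT. The dCas9-OGA library was the highest and Dnmt1-null the next, with a log2 ratio between them of 1.51 (95% interval from 1.48 to 1.54, counting error only). Scaled on total transposon counts this ratio was 0.93, under the 2-fold limit, and relative to the median subfamily it was 1.21. The share of IAPEz-int in all transposon counts was 4.41% in dCas9-OGA and 2.30% in Dnmt1-null. The Dnmt1-null value carries a doubt: the count, 12152, is the same for IAPEz-int and ETnERV-int in that library. These are the only 2 of the 14 most abundant rows there that share a count, and rows of such abundance share none in the 3 other libraries. Which of them, if either, is in error cannot be told from the table. MMETn-int had 3.35 counts for each ETnERV-int count in Dnmt1-null and 3.83, 3.63 and 3.53 in dCas9-OGA, dCas9-OGA-D242A and WT. For each IAPEz-int count it had 3.35 in Dnmt1-null and 4.84, 6.13 and 6.32 in the others. A true difference in IAPEz-int level would move this ratio as well, so the ratios do not show which count is in error.

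IAPLTR1_Mm, an LTR that flanks IAPEz-int, does not share in this doubt and was at 98.6 cpm in dCas9-OGA, 39.7 in Dnmt1-null, 30.4 in dCas9-OGA-D242A and 31.2 in WT. Its log2 ratio to Dnmt1-null was 1.30 (95% interval from 1.19 to 1.43), and 0.9999 relative to the median subfamily, just under the 2-fold limit. Of the 16 IAP subfamilies 4 were higher (4.46% of all subfamilies) and 1 lower (1.16%), with a median of 0.62 beside 0.30 over all subfamilies. The other 2 higher ones, IAPA_MM-int (1.19) and IAPLTR3-int (1.11), were scarce, at 3.45 and 5.77 cpm in dCas9-OGA. The remaining IAP subfamilies ran from 0.94 for IAPEY4_I-int, 0.87 for IAP-d-int, 0.74 for IAPEY2_LTR and 0.67 for IAPLTR2b to 0.07 for IAPLTR2a and −0.28 for IAPLTR2_Mm. Between these lay IAPEY_LTR and IAPLTR2a2_Mm at 0.57 each, IAPLTR1a_Mm at 0.52, IAP1-MM_I-int at 0.25 and IAPEY3-int at 0.22. IAPEy-int, an older IAP-related sequence, went the other way and had the lowest log2 ratio of all subfamilies, −1.72. It was at 3.29 cpm in dCas9-OGA, 11.9 in Dnmt1-null, 2.17 in dCas9-OGA-D242A and 0.92 in WT, so it stood high in the Dnmt1-null library only.

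The LINE subfamilies were spread less. L1Md_A, one of the young L1 subfamilies of the mouse, was at 914 cpm in dCas9-OGA, 443 in Dnmt1-null, 634 in dCas9-OGA-D242A and 372 in WT. Its log2 ratio was 1.04, but 0.74 relative to the median subfamily and 0.47 on total transposon counts. L1Md_T, at 1274, 836, 947 and 513 cpm in the same order, was not called (0.61). L1_Mm was called higher but was as high in dCas9-OGA-D242A (79.9 cpm) as in dCas9-OGA (72.0 cpm), against 25.1 cpm in Dnmt1-null. MERVL-int, the retroviral element of the 2-cell stage, was at 112 cpm in dCas9-OGA, 129.6 in Dnmt1-null and 153 in dCas9-OGA-D242A, all far below the 1261 cpm of WT. RLTR19-int was at 342 cpm in dCas9-OGA and 254 cpm in Dnmt1-null, a log2 ratio of 0.43.

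Lower in dCas9-OGA were 2 of the 3 B2 SINE subfamilies (1.16% of all subfamilies), short elements derived from a tRNA gene and copied by RNA polymerase III or as parts of other transcripts. B2_Mm1a was at 769 cpm in dCas9-OGA, 1948 in Dnmt1-null, 1513 in dCas9-OGA-D242A and 1269 in WT, with a log2 ratio of −1.34 (95% interval from −1.37 to −1.32, counting error only). B2_Mm1t was at 585, 1212, 1003 and 890.0 cpm in the same order. In both the dCas9-OGA library was the lowest and Dnmt1-null the highest, while B2_Mm2 stood at 813 and 822 cpm in dCas9-OGA and Dnmt1-null. The 10 B1 subfamilies had a median log2 ratio of 0.31 with none called. Among LTR elements RLTR45-int was at 32.5 cpm in dCas9-OGA, 84.8 in Dnmt1-null, 16.7 in dCas9-OGA-D242A and 66.5 in WT, so both cassette libraries were low. RLTR10F, at 4.45, 10.5, 4.51 and 1.95 cpm in the same order, stood high in Dnmt1-null.

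Of the 97 other repeat rows 4 were higher and 3 lower. The satellite MMSAT4 was at 342 cpm in dCas9-OGA, 688 in Dnmt1-null, 341 in dCas9-OGA-D242A and 116 in WT. Its log2 ratio was −1.01, and Dnmt1-null was the highest of the 4 libraries. Another satellite, IMPB_01, was at 70.2 and 76.0 cpm in the 2 cassette libraries and at 31.0 and 28.6 cpm in Dnmt1-null and WT.

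The single dCas9-OGA-D242A and WT libraries, which the comparison did not use, give each side something to be set against. They do not settle which side was unusual. Each is 1 library, dCas9-OGA-D242A shares line, cassette and doxycycline with dCas9-OGA, and WT was untreated. Features were counted as setting dCas9-OGA apart when it was at least 2-fold away, in the same direction, from each of the other 3 single libraries, and likewise for Dnmt1-null. dCas9-OGA stood above the others in 11 subfamilies (2.13%) and below them in 0 (0%). All 11 were LTR subfamilies, 3 of them IAP: IAPEz-int, IAPLTR1_Mm and IAPA_MM-int. Of the 516 measured, 330 were LTR and 16 were IAP subfamilies. The others were MMETn-int, ETnERV-int, RLTR13G, ERVB7_1-LTR_MM, RLTR4_MM-int, ERVB4_1C-LTR_Mm, SRV_MM-int and ERVB4_1-I_MM-int. Relative to the median subfamily IAPLTR1_Mm (0.9999), ERVB4_1-I_MM-int (0.95) and IAPA_MM-int (0.89) were less than 2-fold above Dnmt1-null. Dnmt1-null stood above the others in 2 subfamilies (0.388%), IAPEy-int and RLTR10F, and below them in 0 (0%).

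**Figure D2:**
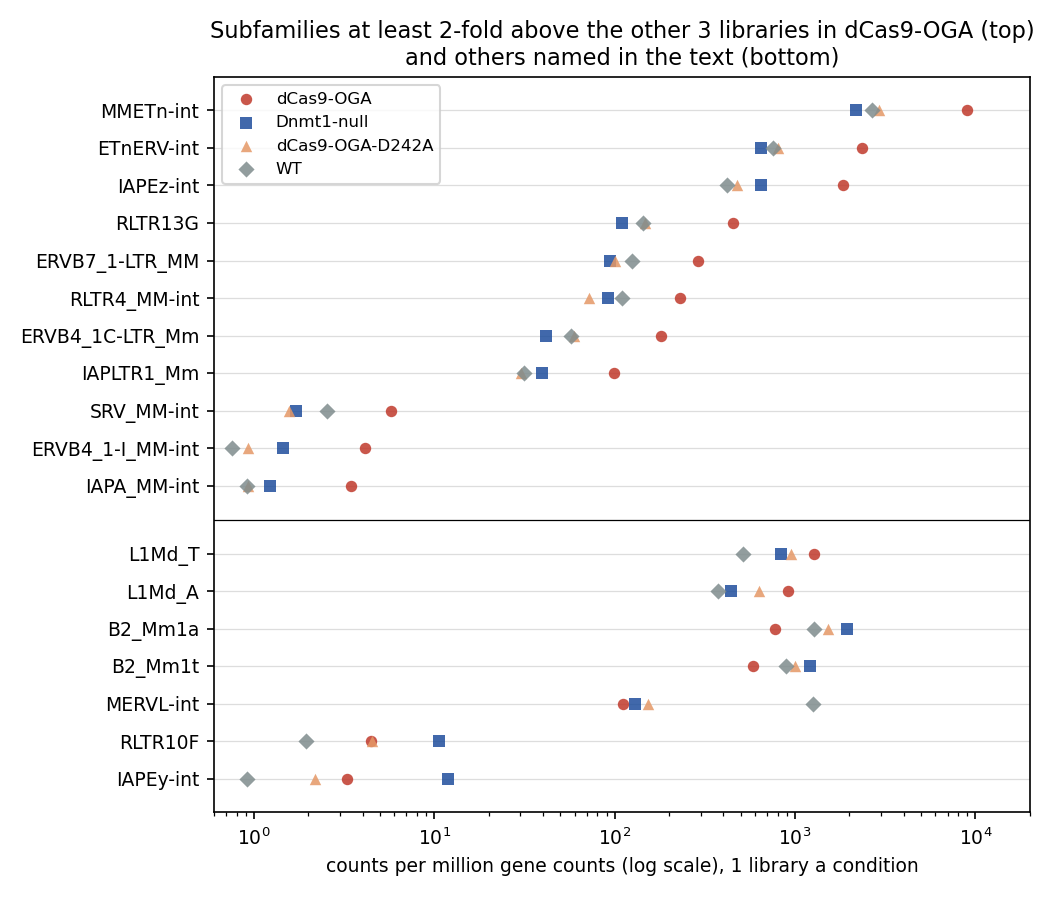
Level in cpm on a log scale of the 11 subfamilies in which dCas9-OGA stood at least 2-fold above each other single library (top) and of 7 others named in the text (bottom), 1 marker a library. In the upper block the markers of Dnmt1-null, dCas9-OGA-D242A and WT lie close together for MMETn-int, at 2175, 2906 and 2652 cpm against 8938 cpm. They lie farther apart for IAPEz-int (650.1, 474 and 419.7 cpm) and ERVB4_1-I_MM-int (1.44, 0.93 and 0.76 cpm).

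Among genes, 1032 (8.32%) were higher in dCas9-OGA and 968 (7.81%) were lower, with a median log2 ratio of −0.00 over all 12402. Some chromosomes differed as a whole. Protein-coding genes of the distal end of chromosome 14, from 90 Mb on, had a median of 1.61 over 45 genes, of which 33 were higher, against 0.04 over the 347 genes of the rest of that chromosome. On chromosome 1 the median was 0.42 over 631 genes and on chromosome 11 it was −0.48 over 970 genes. Dnmt1-null to WT, chromosome 11 had a median of 0.21 in the single libraries and 0.45 in the replicates. On chromosome 8 the median was −0.12 over 614 genes. Against dCas9-OGA-D242A chromosome 8 was at −0.46 in dCas9-OGA and −0.38 in Dnmt1-null, which bears on the genes set apart there. The same segment of chromosome 14 had a median of 1.59 against dCas9-OGA-D242A and 1.64 against WT, and −0.01 between Dnmt1-null and WT, so it stood high in dCas9-OGA. Genes on chromosomes 1, 11 and Y and on that segment, a choice made after seeing the data, were 14.7% of all genes, 19.7% of the higher and 21.8% of the lower ones. Without them 829 genes were higher and 757 lower. The number of copies of these chromosomes was not tested.

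Of protein-coding genes with an established symbol, Nkx6-3, a homeobox factor of stomach and hindbrain, was the most extreme on the higher side (ENSMUSG00000063672, chromosome 8 of GRCm38 from 23153269 to 23158948). It had 2162 counts in dCas9-OGA (86.6 cpm), 4 in Dnmt1-null, 75 in dCas9-OGA-D242A and 123 in WT. The log2 ratio was 6.93. In the replicates it was at 0.92 cpm on average in Dnmt1-null and 0.85 in WT and did not pass (adjusted p = 0.43 by limma). Inhbb, which encodes a subunit of activin B, was at 308 cpm in dCas9-OGA, 10.1 in Dnmt1-null, 23.0 in dCas9-OGA-D242A and 49.8 in WT. Tgm2, a transglutaminase, was at 232, 7.60, 20.7 and 30.6 cpm in the same order. For both dCas9-OGA was at least 2-fold above and Dnmt1-null at least 2-fold below each other single library, with log2 ratios of 4.86 and 4.84. Igsf21, a synaptic adhesion protein, was at 58.5 cpm in dCas9-OGA, 1.93 in Dnmt1-null, 5.84 in dCas9-OGA-D242A and 5.90 in WT. Zbtb7c, a zinc finger repressor, was at 44.9, 1.498, 3.54 and 5.62 cpm in the same order. Between the single Dnmt1-null and WT libraries the log2 ratios of Inhbb, Tgm2, Igsf21 and Zbtb7c were −2.25, −1.94, −1.40 and −1.61. In the replicates they were −0.38, 0.05, 0.21 and −0.85, and Tgm2 did not pass (adjusted p = 0.78 by limma).

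The other genes at this end differed in which libraries stood out. Mid1, an E3 ubiquitin ligase gene on chromosome X, had 649 counts in dCas9-OGA and 3 in Dnmt1-null, a 162-fold ratio with a 95% interval of its log2 value from 5.79 to 9.62 (counting error only), and it was at 7.29 cpm in dCas9-OGA-D242A and 12.6 cpm in WT. It was thus low in Dnmt1-null and also over 2-fold higher in dCas9-OGA, at 26.0 cpm, than in every other single library. In the replicates Mid1 was at 0.60, 1.26 and 1.00 cpm in Dnmt1-null and at 122, 128 and 128 in WT, and it fell by 6.39 on the log2 scale (standard error 0.11, adjusted p = 1.7e-23 by limma). Tmco2 had 177 counts in dCas9-OGA and 0 in Dnmt1-null, at least 35.6-fold higher by the lower limit of the exact 95% interval (44.2-fold against a floor of 3 counts), and it was at 5.84 cpm in dCas9-OGA-D242A and 3.83 cpm in WT. Sorcs2, a sorting receptor, was at 19.996 cpm in dCas9-OGA, 0.80 in Dnmt1-null, 11.7 in dCas9-OGA-D242A and 4.50 in WT. Bdh2, a dehydrogenase of ketone body and siderophore metabolism, was at 23.2, 1.23, 10.8 and 3.43 cpm in the same order. Emp2, an epithelial membrane protein, was at 61.3, 4.07, 8.54 and 5.58 cpm, so dCas9-OGA was the high library.

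At the other end, 2 of the 10 lowest genes were Y-linked: the RNA helicase gene Ddx3y, with a log2 ratio of −5.98, and the histone demethylase gene Uty, at −5.23. All 3 members of the Y-linked list above the count minimum were lower (7.81% of all genes), and Eif2s3y was the other at −4.22. For Ddx3y and Uty dCas9-OGA stood at least 2-fold below each other single library. The log2 ratio of dCas9-OGA was −5.91 to dCas9-OGA-D242A and −1.58 to WT for Ddx3y, and −5.13 and −1.06 for Uty, so WT lay nearer dCas9-OGA than the other libraries did. Between the single libraries the log2 ratio of Dnmt1-null to WT was 4.41 for Ddx3y and 4.16 for Uty. The replicates went the opposite way. Both genes were lower in Dnmt1-null there, with log2 fold changes of −1.61 and −1.996 (adjusted p = 2.4e-17 and 2.2e-16 by limma). How many cells of each line carried these Y-linked genes was not tested.

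The remaining genes at the lower end had varied roles. Aass, an enzyme of lysine breakdown, was at 0.60 cpm in dCas9-OGA, 49.0 in Dnmt1-null, 27.8 in dCas9-OGA-D242A and 7.25 in WT. Dppa3 (also called Stella), a maternal factor that guards methylation in the zygote, was at 1.28, 76.6, 29.4 and 9.96 cpm in the same order. Dppa3 was thus lowest in dCas9-OGA and highest in Dnmt1-null, with a log2 ratio of −5.43, and in the replicates it rose from 1.56 cpm in WT to 16.2 in Dnmt1-null (log2 fold change 3.10, adjusted p = 2.9e-17 by limma). Its pseudogene Dppa3-ps, with 8 and 667 counts in dCas9-OGA and Dnmt1-null, shares sequence with it, so the division of reads between them is uncertain. Efhc2, a calcium-binding protein gene of chromosome X, was at 0.28 cpm in dCas9-OGA, 29.5 in Dnmt1-null, 6.57 in dCas9-OGA-D242A and 1.20 in WT. Irgm1, an interferon-inducible GTPase, was at 0.60, 38.7, 5.80 and 2.11 cpm in the same order. Stmn2, a regulator of microtubules in neurons, was at 8.62 cpm in dCas9-OGA, 297 in Dnmt1-null, 342 in dCas9-OGA-D242A and 181 in WT, so here the dCas9-OGA library was the low one. Nefm, a neurofilament gene, was at 0.28, 24.8, 1.37 and 11.2 cpm, and H2-Eb1, an MHC class II gene, at 0.48, 22.0, 3.67 and 8.17 cpm, in the order dCas9-OGA, Dnmt1-null, dCas9-OGA-D242A and WT. The replicates did not always share the direction of the single Dnmt1-null and WT libraries, as for Ddx3y and Uty above. Irgm1 fell by 1.90 and Aass by 1.30 on the log2 scale in Dnmt1-null there (adjusted p = 8.8e-18 and 5.4e-14 by limma), opposite to the single libraries. Efhc2, Nefm, H2-Eb1 and Stmn2 were higher in Dnmt1-null in both, with log2 fold changes in the replicates of 2.43, 1.27, 1.43 and 0.44.

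More extreme ratios belonged to pseudogenes, which were outside the naming rule and are given because of their size. Ftl1-ps1 had 26 counts in dCas9-OGA, 3934 in Dnmt1-null, 26 in dCas9-OGA-D242A and 24 in WT. Ftl2-ps had 2485 counts in dCas9-OGA, 0 in Dnmt1-null, 2673 in dCas9-OGA-D242A and 2145 in WT, at least 504-fold higher in dCas9-OGA than in Dnmt1-null by the same lower limit. Reads may be divided between these copies of the ferritin light chain gene, which was not tested. Dnmt1-null differed from all 3 other libraries in which copy was counted.

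dCas9-OGA stood above the other 3 single libraries in 250 genes (2.02%) and below them in 275 (2.22%). Dnmt1-null stood above them in 118 genes (0.951%) and below them in 130 (1.05%). Besides Nkx6-3, Igsf21 and Tgm2, the genes most clearly above in dCas9-OGA were Tex13b and Lims2. Tex13b, a testis-expressed gene of chromosome X, was at 6.41 cpm in dCas9-OGA, 0.11 in Dnmt1-null, 0.12 in dCas9-OGA-D242A and 0.16 in WT. In the replicates Tex13b was at 18.3, 19.6 and 18.7 cpm in Dnmt1-null and at 0.79, 1.29 and 1.08 in WT (log2 fold change 3.73, adjusted p = 1.1e-18 by limma). The single Dnmt1-null library thus differed from the replicates here, beside the difference between single and replicate libraries described with the ES markers. Lims2, an adaptor at sites of cell adhesion, was at 28.0 cpm in dCas9-OGA, 1.77 in Dnmt1-null, 1.61 in dCas9-OGA-D242A and 3.15 in WT. Cdh2 (N-cadherin) stood below the others in dCas9-OGA, at 0.72, 8.40, 9.59 and 9.32 cpm in the same order, beside Stmn2, H19, Nnat and Otx2. Of the 250 genes above, 75 lay on chromosomes 1, 11 and Y and the distal segment of chromosome 14, against 14.7% of all genes.

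The genes most clearly above in Dnmt1-null were Scml2, Dcdc2a, Xlr3c, Dnah12 and Hprt. Hprt, the purine salvage enzyme of chromosome X used for selection in ES cells, was at 25.3 cpm in dCas9-OGA, 223 in Dnmt1-null, 26.6 in dCas9-OGA-D242A and 19.96 in WT. The replicates had 110.4, 105 and 109 cpm in Dnmt1-null and 25.2, 21.6 and 18.96 in WT (log2 fold change 2.38, adjusted p = 4.5e-19 by limma). Both sets of libraries thus had Hprt higher in Dnmt1-null than in WT. Dcdc2a, a doublecortin-domain gene, was at 0.28 cpm in dCas9-OGA, 17.1 in Dnmt1-null, 0.48 in dCas9-OGA-D242A and 0.52 in WT. Dnah12, a dynein heavy chain of cilia, was at 0.40, 8.40, 0.40 and 0.52 cpm in the same order, but in the replicates it was lower in Dnmt1-null (log2 fold change −0.41, adjusted p = 0.0065 by limma). Xlr3c, a member of a cluster of near-identical genes whose reads may be divided among them, had 136 counts in Dnmt1-null against 3, 7 and 4 in dCas9-OGA, dCas9-OGA-D242A and WT. Selenon, a selenoprotein of the endoplasmic reticulum, stood below in Dnmt1-null, at 2.73 cpm against 14.025, 15.5 and 18.2 cpm in dCas9-OGA, dCas9-OGA-D242A and WT.

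The replicate libraries, which the comparison did not use, show how far these genes also differed between Dnmt1-null and WT. Over all 17297 genes tested there, 6196 (35.8%) were higher and 6128 (35.4%) lower in Dnmt1-null at an adjusted p of 0.05 by limma. Of the 11499 tested genes of the comparison 45.2% were higher and 28.6% lower. Of the 118 genes above the others in the single Dnmt1-null library 100 were tested, 50 of them higher and 38 lower, so the share higher was close to that of all genes. At least 2-fold higher in the replicates were 39.0% of these 100, against 3.74% of the 11499, and 12 of them were at least 2-fold lower, against 4.50%. Of the 130 genes below the others 125 were tested, 92 of them lower and 20 higher. At least 2-fold lower were 30.4% of them and at least 2-fold higher 3.20%. Genes that set dCas9-OGA apart also exceeded the shares of all genes. Of those below the others in dCas9-OGA 16.1% were at least 2-fold higher in the replicates and 18.4% at least 2-fold lower. Of those above the others 4.37% were higher and 10.0% lower by that limit. The single and replicate libraries of Dnmt1-null cells thus had a part of the differences of Dnmt1-null from WT in common, and others went the opposite way. The replicates are not stated to be separate cultures, so these p-values measure the spread between samples, which may be technical.

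**Figure D3:**
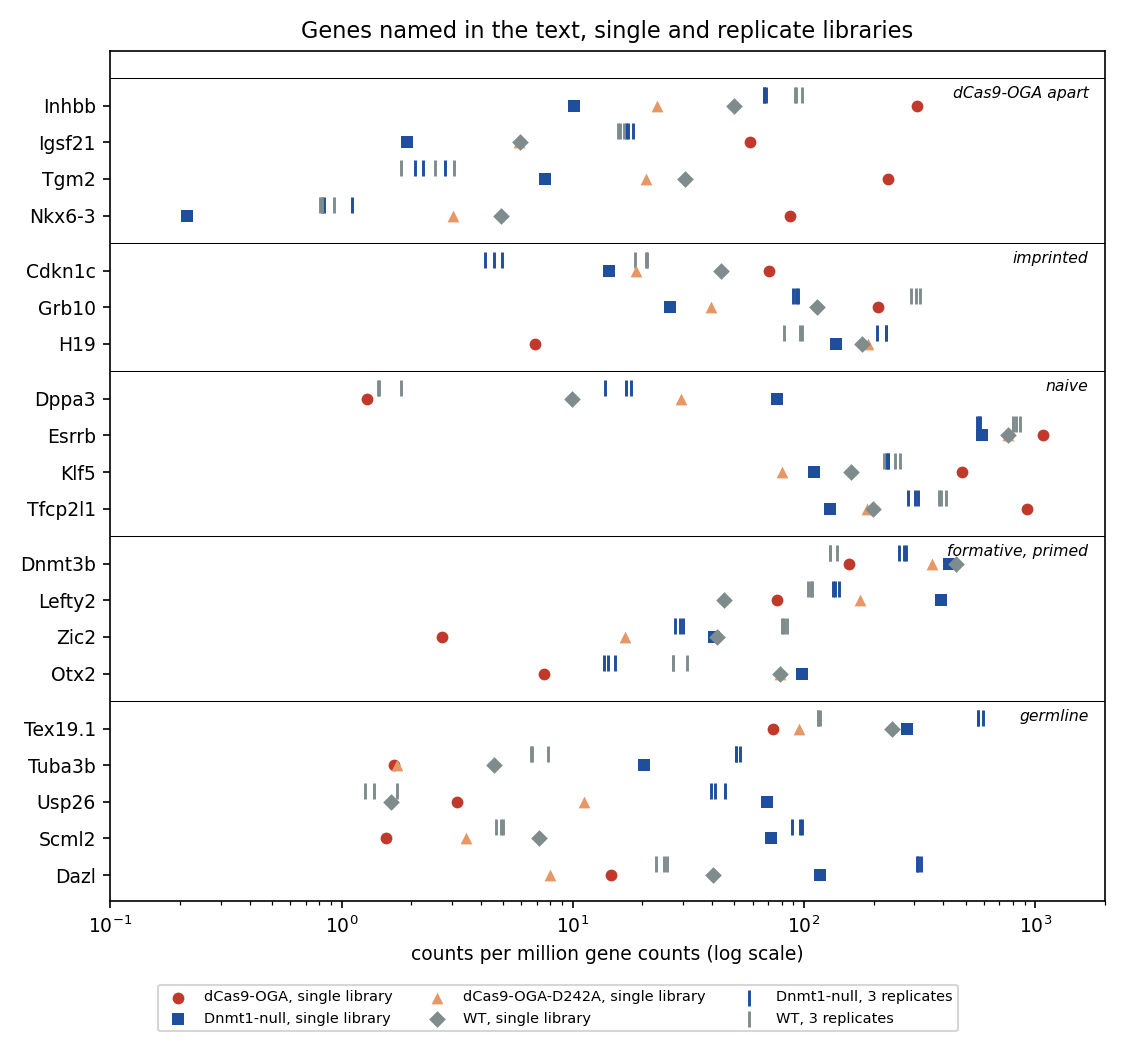
Level in cpm on a log scale of genes named in the text, in the 4 single libraries (filled markers) and the 3 replicate Dnmt1-null and 3 replicate WT libraries (ticks, raised for legibility and processed separately). Dazl, Scml2, Usp26 and Tuba3b are higher in Dnmt1-null than in dCas9-OGA and WT in the single libraries, and the ticks of Dnmt1-null lie above those of WT.

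Germline genes gated by promoter methylation, a list of genes of meiosis, the piRNA pathway and germ cell identity, went both ways, with 21 of the 31 measured members below a log2 ratio of 0. Of 41 listed 31 passed the count minimum, of which 15 were lower, beside 7.81% of all genes, and 3 were higher, beside 8.32%. The minimum is on the sum of both libraries, so a member scarce in dCas9-OGA could pass through Dnmt1-null alone. Scml2, with 39 and 1341 counts, did so. The same holds for the shares of all genes, and these counts are descriptive. The median log2 ratio was −0.71. Scml2, a Polycomb-related regulator of the male germline, was at 1.56 cpm in dCas9-OGA, 71.7 in Dnmt1-null, 3.46 in dCas9-OGA-D242A and 7.17 in WT. Usp26, a deubiquitinase of testis, was at 3.17, 69.1, 11.2 and 1.63 cpm in the same order. Dazl, an RNA-binding protein needed for germ cell development, was at 14.6, 117, 7.97 and 40.4 cpm. In all 3 the Dnmt1-null library was the highest by over 2-fold. In the replicates Dazl was at 309, 311 and 321 cpm in Dnmt1-null and 25.5, 22.9 and 24.8 in WT (log2 fold change 3.75, standard error 0.05, adjusted p = 2.2e-25 by limma). Scml2 rose there by 4.23 and Usp26 by 4.53 on the log2 scale (adjusted p = 3.7e-24 and 1.3e-21 by limma).

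Of the 31 germline genes 10 stood at least 2-fold above in Dnmt1-null, beside 0.951% of all genes. In the replicates 22 of 28 tested were higher in Dnmt1-null (45.2% of tested genes of the comparison) and 4 lower (28.6%). Members could enter through Dnmt1-null alone, as said above, so both counts are descriptive and test nothing. The other members set apart were Xlr3a, Tuba3a, Tuba3b, Tex19.2, Hormad1, Taf9b and Dpep3, of which Tuba3a and Tuba3b are near-identical copies and each is uncertain. Tex19.1, a germline gene tied to retrotransposon control, was at 73.6 cpm in dCas9-OGA, 280.1 in Dnmt1-null, 94.9 in dCas9-OGA-D242A and 241 in WT, so the single WT library was high as well. Fkbp6, a cochaperone of the piRNA pathway, was at 2.40, 33.1, 8.02 and 21.8 cpm in the same order and was lowest in dCas9-OGA. Tdrd1, a tudor-domain scaffold, went the other way with 4.53 cpm in dCas9-OGA, 0.53 in Dnmt1-null, 3.14 in dCas9-OGA-D242A and 2.83 in WT. Sycp3, of the synaptonemal complex (1.61), and Mov10l1, a piRNA helicase (1.15), were the other 2 higher members. Summed over the list, germline transcripts came to 448 cpm in dCas9-OGA, 1106 in Dnmt1-null, 372 in dCas9-OGA-D242A and 631 in WT. Among Rhox homeobox genes of chromosome X 3 of 15 passed the minimum, of which 1, Rhox1, was lower (7.81% of all genes), at 0.16 against 11.2 cpm, while Rhox5, usually the methylation-sensitive member of the cluster, stood at 110.3 and 87.5 cpm. In the replicates all 3 were higher in Dnmt1-null than in WT (45.2% of tested genes of the comparison).

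Promoter sequence is shown for 3 of the set-apart germline genes with high levels in Dnmt1-null, because the list was drawn up for its silencing by promoter methylation. The windows are the 250 bases before the RefSeq start on GRCm38.p6, 5′ to 3′ on the strand of the gene, with each CpG pair in capitals. Those of Dazl (chr17:50293621-50293870, minus strand) and Usp26 (chrX:51801234-51801483, minus strand) lie just upstream of the annotated gene, and that of Scml2 (chrX:161162500-161162749, plus strand) lies inside the longest gene model.
Dazl: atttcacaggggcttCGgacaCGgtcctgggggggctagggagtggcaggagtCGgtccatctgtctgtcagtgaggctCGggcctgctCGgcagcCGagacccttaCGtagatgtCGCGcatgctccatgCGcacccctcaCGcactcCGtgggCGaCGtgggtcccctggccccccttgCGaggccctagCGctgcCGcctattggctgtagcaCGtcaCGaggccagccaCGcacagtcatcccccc
Usp26: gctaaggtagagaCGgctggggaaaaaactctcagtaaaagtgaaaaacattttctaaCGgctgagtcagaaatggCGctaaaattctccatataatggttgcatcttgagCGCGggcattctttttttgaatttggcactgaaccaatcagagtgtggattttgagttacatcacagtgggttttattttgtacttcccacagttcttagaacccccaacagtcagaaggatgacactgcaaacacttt
Scml2: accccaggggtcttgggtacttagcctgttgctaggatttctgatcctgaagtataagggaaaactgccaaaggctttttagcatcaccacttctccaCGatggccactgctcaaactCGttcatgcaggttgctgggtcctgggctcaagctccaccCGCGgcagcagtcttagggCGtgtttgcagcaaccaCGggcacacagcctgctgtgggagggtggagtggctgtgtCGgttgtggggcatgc
The window of Dazl holds 20 CpG pairs (the motif searched is CG), and 17.7% of 27025 promoters of the same length hold at least as many. Those of Usp26 and Scml2 hold 5 and 7, numbers reached by 55.5% and 46.5% of promoters. All 10 set-apart germline genes had a promoter in the table, 7 of them with more CpG pairs than the median promoter, which holds 6 (quartiles 2 and 16). Methylation of these windows was not measured in these libraries.

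The methyltransferases and their partners did not differ as a block. Of 8 genes of DNA methylation 2 were higher (8.32% of all genes) and 3 lower (7.81%), with a median of 0.16, and 1 of the higher ones is Dnmt1, the gene mutated in the compared line. The de novo enzyme Dnmt3a was at 62.0 cpm in dCas9-OGA, 339 in Dnmt1-null, 252 in dCas9-OGA-D242A and 241.9 in WT. Dnmt3b, the other de novo enzyme, was at 156, 422, 358 and 452 cpm in the same order. Both were lowest in dCas9-OGA, with log2 ratios of −2.44 and −1.43. Their cofactor Dnmt3l was at 313 cpm in dCas9-OGA, 1016 in Dnmt1-null, 400 in dCas9-OGA-D242A and 1226 in WT. Tet2, which oxidizes methylcytosine, was at 196, 79.4, 53.4 and 30.8 cpm in that order and was highest in dCas9-OGA. Uhrf1, which brings Dnmt1 to hemimethylated DNA, was at 470 and 398 cpm in dCas9-OGA and Dnmt1-null. In the replicates Dnmt3b and Dnmt3l were higher in Dnmt1-null than in WT by 1.11 and 1.61 on the log2 scale (adjusted p = 1.1e-15 and 8.4e-19 by limma).

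Of 8 genes of O-GlcNAc cycling 0 were higher (8.32% of all genes) and 1 was lower (7.81%), with a median of 0.26. Ogt, the transferase, was at 178 cpm in dCas9-OGA, 193 in Dnmt1-null, 109 in dCas9-OGA-D242A and 69.8 in WT. Mgea5, the mouse gene for OGA (the fusion protein carries a bacterial enzyme, not counted here), was at 171, 94.4, 169 and 108 cpm in the same order. Gnpnat1, which acetylates glucosamine phosphate for the donor sugar, was the lower member, at 41.4 and 107 cpm in dCas9-OGA and Dnmt1-null.

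Of 19 genes of TRIM28 and H3K9 silencing 1 was higher (8.32% of all genes) and 0 were lower (7.81%), with a median of −0.08. Trim28 was at 2277 cpm in dCas9-OGA, 3827 in Dnmt1-null, 2343 in dCas9-OGA-D242A and 5073 in WT, a log2 ratio of −0.75. Suv39h1, an H3K9 methyltransferase of chromosome X, was the higher member at 30.6 and 13.2 cpm in dCas9-OGA and Dnmt1-null. Of 10 further factors listed as associated with TRIM28 0 were higher (8.32% of all genes) and 0 lower (7.81%), with a median of 0.19. Sf3b1, a splicing factor, had the largest ratio at 0.88. Of 13 KRAB zinc finger genes of retroelement control 5 passed the minimum and 2 were lower (7.81% of all genes), with a median of −0.18. These were Zfp819, at 3.09 cpm in dCas9-OGA and 12.7 in Dnmt1-null, and Zfp534, at 4.33 and 12.7 cpm.

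Imprinted genes differed in both directions. Of 30 above the minimum 6 were higher (8.32% of all genes) and 9 lower (7.81%), with a median of −0.33. H19, a maternally expressed noncoding RNA, was at 6.85 cpm in dCas9-OGA, 138 in Dnmt1-null, 189.8 in dCas9-OGA-D242A and 179 in WT. Nnat, a paternally expressed gene, was at 0.68, 19.8, 19.98 and 14.025 cpm in the same order. Plagl1, a zinc finger factor, was at 0.72, 14.9, 9.06 and 4.54 cpm. All 3 were at their lowest in dCas9-OGA, and the other 3 libraries lay well above it. Snrpn, of the Prader-Willi region, was at 32.1 cpm in dCas9-OGA, 185 in Dnmt1-null, 66.5 in dCas9-OGA-D242A and 91.1 in WT. On the higher side stood Grb10, a brake on growth factor signalling, at 209 cpm in dCas9-OGA, 26.3 in Dnmt1-null, 39.4 in dCas9-OGA-D242A and 114 in WT. Cdkn1c, an inhibitor of the cell cycle, was at 70.3, 14.3, 18.8 and 43.6 cpm in that order. Both were lower in Dnmt1-null than in WT in the replicates as well, where Grb10 fell by 1.63 and Cdkn1c by 1.94 on the log2 scale (adjusted p = 6.9e-19 and 2.0e-15 by limma). H19 went the other way, rising by 1.35 in Dnmt1-null in the replicates (adjusted p = 4.9e-16 by limma) but standing at a log2 ratio of −0.38 between the single Dnmt1-null and WT libraries. Snrpn was likewise opposite, at 1.02 between the single libraries and −1.08 in the replicates (adjusted p = 6.9e-07 by limma). Of the 25 imprinted genes tested in the replicates 10 were higher in Dnmt1-null (45.2% of tested genes of the comparison) and 11 lower (28.6%). Slc22a18, a transporter gene beside Cdkn1c, was at 23.8 cpm in dCas9-OGA, 3.42 in Dnmt1-null, 5.92 in dCas9-OGA-D242A and 4.34 in WT.

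Naive pluripotency genes went both ways. Of 18 naive genes 6 were higher (8.32% of all genes) and 3 lower (7.81%), with a median of 0.58 and 6 members below 0. Tfcp2l1, a transcription factor of the naive state, was at 925 cpm in dCas9-OGA, 129.8 in Dnmt1-null, 187 in dCas9-OGA-D242A and 199 in WT. Klf5, on the distal segment of chromosome 14, was at 481, 110.3, 80.3 and 160.1 cpm in the same order. Gbx2 was at 51.7 cpm in dCas9-OGA and 18.6 in Dnmt1-null but at 48.1 in WT, and Tbx3 at 241.8 and 93.8 cpm with 270.5 in WT. Dppa3, described above, was the lowest naive gene, followed by Fbxo15 (−1.13) and Klf2 (−1.05). Of 12 core pluripotency genes 0 were higher and 1, Dppa2 (−1.23), was lower, close to the shares of all genes, with a median of 0.10.

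Of 13 genes of the formative and primed epiblast 9 were lower (7.81% of all genes) and 0 higher (8.32%), with a median of −1.58. Otx2, a driver of the exit from the naive state, was at 7.53 cpm in dCas9-OGA, 98.3 in Dnmt1-null, 78.7 in dCas9-OGA-D242A and 78.6 in WT. Zic2, also on the distal segment of chromosome 14, was at 2.72, 40.7, 16.9 and 42.1 cpm in the same order, opposite to the median of that segment. Lef1, a Wnt effector, was at 0.36, 14.6, 1.09 and 25.5 cpm. Otx2 was low in dCas9-OGA against 3 close libraries, while Lef1 was low in both cassette libraries. Lefty1 and Lefty2, inhibitors of Nodal so alike that reads may be exchanged between them, were at 43.7 and 76.7 cpm in dCas9-OGA, 233 and 393 in Dnmt1-null, 188 and 175 in dCas9-OGA-D242A and 47.3 and 44.9 in WT, so WT was as low as dCas9-OGA. Summed, the formative list came to 485 cpm in dCas9-OGA, 1491 in Dnmt1-null, 980.1 in dCas9-OGA-D242A and 1154 in WT. Fewer cells in a state and less RNA per cell cannot be told apart in these bulk libraries.

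**Figure D4:**
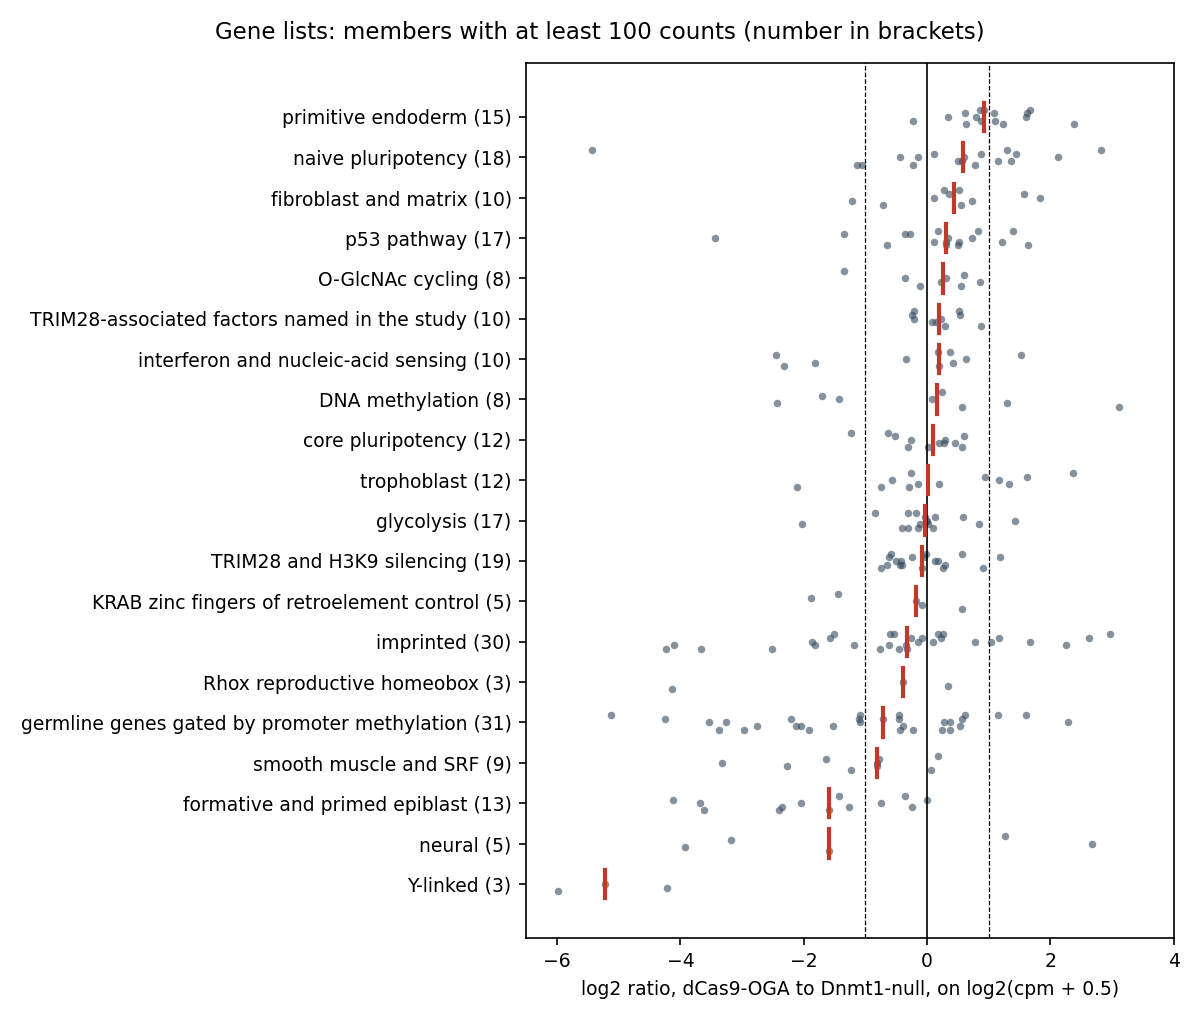
Log2 ratio of dCas9-OGA to Dnmt1-null for each list member with at least 100 counts (points, spread vertically for legibility), with the list median (red bar), equality (solid line) and the 2-fold limits (dashed lines). Lists without such a member are not drawn; the median is 0.93 for 15 primitive endoderm genes, −0.71 for 31 germline genes and −1.58 for 13 formative and primed genes.

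Of 15 primitive endoderm genes 7 were higher (8.32% of all genes) and 0 lower (7.81%), with a median of 0.93. Their abundant members were basement membrane and secreted proteins that ES cells also make. Lamc1, a laminin chain on chromosome 1, was at 1383 cpm in dCas9-OGA, 447 in Dnmt1-null, 555 in dCas9-OGA-D242A and 553 in WT. Apoe was at 1124, 354, 451 and 245 cpm in the same order. Hnf4a, a transcription factor of visceral endoderm, was at 20.8, 3.58, 10.5 and 3.47 cpm, and Sox7 at 9.62, 2.84, 0.16 and 5.86 cpm. The defining factors Gata4 and Gata6 stood at 6.69 and 5.69 cpm in dCas9-OGA and 4.12 and 2.89 cpm in Dnmt1-null, below the 12.6 and 8.85 cpm of WT. Summed, the list came to 3692 cpm in dCas9-OGA, 1757 in Dnmt1-null, 1925 in dCas9-OGA-D242A and 2631 in WT, with Lamc1 the most abundant in dCas9-OGA and Sparc in Dnmt1-null.

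Of 12 trophoblast genes 4 were higher (8.32% of all genes) and 1 lower (7.81%), with a median of 0.02. Plet1 was at 31.1 cpm in dCas9-OGA, 5.62 in Dnmt1-null, 8.22 in dCas9-OGA-D242A and 13.1 in WT. Esx1, a homeobox gene of chromosome X, was the lower one, at 1.24, 7.06, 3.91 and 9.44 cpm in the same order. Among markers of the trophoblast, Elf5 had 1 count in dCas9-OGA and 6 in Dnmt1-null, Gata3 8 and 31, Hand1 7 and 72, and Krt7 58 and 55. Tead4 (1.61), Krt8 (1.34) and Tfap2c (1.17) were the other higher members. The list summed to 684 cpm in dCas9-OGA and 585 in Dnmt1-null, with 1009 in dCas9-OGA-D242A and 2250 in WT. Peg10 was the most abundant in both libraries of the comparison. In the replicates the sums went the other way, at 964, 1080 and 1043 cpm in Dnmt1-null and 289, 297 and 296 in WT. Of the 11 genes tested there 9 were higher in Dnmt1-null (45.2% of tested genes of the comparison) and 2 lower (28.6%).

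Neural genes were few. Of 5 measured 2 were higher (8.32% of all genes) and 3 lower (7.81%), with a median of −1.59. Tubb3, a neuronal tubulin, was at 23.0 cpm in dCas9-OGA, 212 in Dnmt1-null, 125 in dCas9-OGA-D242A and 144 in WT. Pax6, an early neural factor, was at 0.36, 12.5, 4.99 and 5.58 cpm in the same order. Sox1, a marker of neural progenitors, went the other way, at 13.3, 1.66, 1.25 and 2.79 cpm, and stood high in dCas9-OGA alone. The list summed to 61.7 cpm in dCas9-OGA and 279 in Dnmt1-null.

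Of 9 smooth muscle and SRF target genes 0 were higher (8.32% of all genes) and 4 lower (7.81%), with a median of −0.81. Myl9, a myosin light chain, was at 1.24 cpm in dCas9-OGA, 17.1 in Dnmt1-null, 10.5 in dCas9-OGA-D242A and 11.1 in WT. Cnn2, an actin-binding calponin, was at 32.5, 158, 139 and 198 cpm in the same order. All 4 lower members, with Thbs1 and Cnn1 beside these, were lowest in dCas9-OGA. Of 10 fibroblast and matrix genes 2 were higher and 1 lower (the same shares of all genes apply), with a median of 0.44. Pdgfrb, a growth factor receptor, was at 16.6 cpm in dCas9-OGA, 4.28 in Dnmt1-null, 13.3 in dCas9-OGA-D242A and 12.1 in WT. Fbn1 was the other higher member (1.58) and Twist1 the lower one (−1.22), and Fn1 led the list at 1089.9 and 849 cpm.

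Of 10 genes of interferon response and nucleic acid sensing 1 was higher (8.32% of all genes) and 3 lower (7.81%), with a median of 0.19. Ddx58, which encodes the RNA sensor RIG-I, was at 18.2 cpm in dCas9-OGA, 102 in Dnmt1-null, 34.8 in dCas9-OGA-D242A and 32.7 in WT. Zbp1, a sensor of Z-form nucleic acids, was at 0.96, 6.79, 2.58 and 1.75 cpm in the same order. Oas1a, of a family of near-identical oligoadenylate synthetases whose reads are uncertain, was at 4.57, 17.4, 7.53 and 8.21 cpm. These 3 were high in the single Dnmt1-null library, but in the replicates Ddx58 and Zbp1 were lower in Dnmt1-null than in WT (log2 fold changes −0.53 and −1.44, adjusted p = 8.7e-09 and 5.4e-10 by limma) and Oas1a was higher (0.43, adjusted p = 3.2e-06 by limma). All 10 fibroblast and matrix genes and all 8 smooth muscle and SRF genes tested there were lower as well (28.6% of tested genes of the comparison). A link between these differences was not tested. Tmem173, which encodes STING, was the higher member, at 5.85 cpm in dCas9-OGA and 1.71 in Dnmt1-null. Over its 22 matched genes the list summed to 420.4 cpm in dCas9-OGA, 535 in Dnmt1-null, 496 in dCas9-OGA-D242A and 248 in WT. Ifitm3 was the most abundant in both libraries of the comparison.

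Of 17 p53 pathway genes 3 were higher (8.32% of all genes) and 2 lower (7.81%), with a median of 0.31. Cdkn2a, which encodes p16 and p19Arf, was at 2.56 cpm in dCas9-OGA, 32.9 in Dnmt1-null, 35.4 in dCas9-OGA-D242A and 21.6 in WT. Its neighbor Cdkn2b was at 2.68, 7.65, 9.38 and 9.40 cpm in the same order, so both genes of that locus were lowest in dCas9-OGA. Perp (1.63), Phlda3 (1.39) and Pmaip1 (1.21) were the higher members. Glycolysis genes served as a metabolic comparison: of 17, 1 was higher (8.32% of all genes) and 1 lower (7.81%), with a median of −0.04. Slc16a3, a lactate exporter on chromosome 11, was at 171 cpm in dCas9-OGA and 701 in Dnmt1-null, and Hk1, a hexokinase, at 329 and 122 cpm. Of 19 Hox genes and 19 genes of the 2-cell-like state none reached the minimum. The 13 genes of the mitochondrial genome had 0 counts in all 4 single libraries, so they seem not to have been counted and their levels are not known. Zscan4c, of the 2-cell-like state, had 5 counts in dCas9-OGA and 3 in Dnmt1-null.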

How the data were processed

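RNA-seq counts of 4 single libraries were analysed, with gene signal of 6 replicate libraries. For the single libraries the authors deposited whole counts per gene (Ensembl v87) and per RepeatMasker subfamily on mm10, without normalization; the submitters' processing notes name bcl2fastq 2.17, Bowtie2 2.2.2, TopHat2 2.0.11 and featureCounts 1.5.0. For the replicates, aligned with HISAT2 2.1.0, the authors deposited a signal in which gene counts had been brought to a common library size, in a column taken by position because the headers do not match it. Every value of all 6 files was a whole multiple of 1 step (100% within 0.001 of a whole read), which gave 26846275 to 37112247 reads a library. The labels name an unstranded kit and the study's methods a stranded one, so reads of overlapping and antisense genes may not be separated.

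Counts were divided by the library's total gene counts, and log2(cpm + 0.5) was compared without a test. Intervals are exact (Clopper-Pearson, 95%) and cover counting error only, as do floors of 3 counts, since reads are not independent molecules. Replicates were tested on log2(signal + 0.5) with the trend option of limma 3.58.1, p-values being adjusted over 17297 genes by Benjamini and Hochberg, where the study's methods name DESeq2. Levels of replicates are cpm of recovered reads. Gene positions came from GENCODE on GRCm38 (49412 of 49671 identifiers matched). Computations ran in R 4.3.3 and Python 3.11.15 (SciPy 1.17.1, NumPy 2.4.6, pandas 2.3.3, matplotlib 3.10.9) and were tested on simulated data.

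The members and lists were chosen with earlier results of these data known. Named were Dnmt1, the 10 genes at each end (no predicted genes or pseudogenes), up to 4 members with the largest ratios in each list, the 10 subfamilies at each end, every IAP subfamily, 6 others, and the 5 clearest genes of each class set apart; further names were chosen after their values were seen. Alternatives were the scaling (edgeR 4.0.16 TMM, DESeq2 1.42.0 size factors, repeat totals), pseudocounts, count minimums, the fold, leaving out the single WT library, and for the replicates edgeR, DESeq2, no filter, a replicate block and leaving out each library. The scaling to the median subfamily and the omission of chromosomes were chosen after seeing the data.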

Additional observations from a re-analysis of the deposited data

How the results depend on the processing

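With 1 library a condition, depth limits scarce features: a pseudocount of 5 cpm left 15 subfamilies apart (11 higher, 4 lower) in place of 29, and 1112 genes in place of 2000, and a minimum of 500 counts left 18 and 1139. With 1.5-fold as the limit 109 subfamilies and 4366 genes were apart, and with 4-fold 3 and 439. The log2 ratio of IAPEz-int was 1.54 with TMM factors of the genes, 1.20 with those of the repeats, 0.93 on total transposon counts, 1.24 on DNA transposon counts and 1.21 relative to the median subfamily. The direction of the subfamilies turned with the scaling, from 23 higher and 6 lower to 7 and 23 on total transposon counts and to 11 and 16 relative to the median. Genes that set dCas9-OGA apart numbered 1387 at 1.5-fold, 67 at 4-fold and 852 without the single WT library, in place of 525. Its subfamilies numbered 41 at 1.5-fold and 0 at 4-fold in place of 11. Genes that set Dnmt1-null apart numbered 787, 35 (26 higher, 9 lower) and 599 under the same settings, in place of 248. Its subfamilies numbered 9, 0 and 5 in place of 2. Limits of fold and count act by their construction; the cause of the other shifts was not tested. TMM and DESeq2 factors of the genes left 2009 and 2033 genes apart.

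In the replicates 12324 genes passed limma, and 12556 with the replicate block; same-numbered samples did not deviate together (correlations 0.07, −0.02 and 0.07), so the numbers pair nothing. DESeq2 passed 11404 genes, edgeR 12252 and leaving out 1 library between 11616 and 12128. Among single genes 6 calls of 3 genes, Baz1b, Lin28a and Igsf21, were lost when 1 replicate was left out, and that of Lef1 was gained.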
